A study of Mus musculus with 3 samples.

Results

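The 10 genes described here are Klf2, Klf3, Txk, Actn1, Il7r, Ccr7, S1pr1, Lef1, Bach2 and Foxp1, genes linked to the quiescence of T cells and to their recirculation between blood and lymphoid organs. They were taken by symbol from a list that was made with earlier results of these data known. All 10 of the 10 had a named probe set, out of 19505 genes with one on the array. CD8 T cells of the mouse, activated through CD3 and CD28, were grown with Tc1 cytokines, which favour cytotoxic effectors that make interferon-gamma. They received no added cholesterol (the control), 0.5 µg/ml or 0.75 µg/ml cholesterol, and all 3 cultures shared the stimulation and the cytokines. Total RNA of each condition was hybridised to 1 whole-transcript array, so no difference below has a replicate check, there is no p-value, and precision is limited by having so few arrays. The labels do not state the strain, the number of animals or cultures, the time of exposure or the carrier of the cholesterol, and any action of that carrier cannot be told apart from the action of cholesterol.

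A resting T cell circulates between blood and lymph nodes until antigen arrives. The transcription factors FOXO1 and KLF2 keep this state, and KLF2 switches on S1pr1, whose product lets the cell leave a lymph node by sensing sphingosine 1-phosphate. CCR7 guides entry into lymph nodes, the interleukin-7 receptor carries a survival signal, and LEF1, BACH2 and FOXP1 are transcription factors of naive and memory cells. Strong stimulation through the T cell receptor lowers several of these transcripts as cells become effectors.

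The proximal promoters of Klf2, Klf3, Txk and Actn1 are shown because these genes were lower together at 0.75 µg/ml. Each line gives the 250 bases before a RefSeq transcription start on assembly GRCm38.p6, 5′ to 3′ on the strand of the gene, and the first of the 2 listed starts of Txk was taken. The position of Klf2 is chr8:72318812-72319061 on the plus strand, that of Klf3 chr5:64803271-64803520 on the plus strand, that of Txk chr5:72752778-72753027 on the minus strand and that of Actn1 chr12:80260364-80260613 on the minus strand. Capitals mark the CACCC box bound by KLF proteins (CACCC), the GC box of Sp and KLF proteins (GGGCGG) and the MEF2 motif (CTA, any 4 bases, then TAG), each searched on both strands. CACCC boxes and GC boxes can overlap each other.
Klf2: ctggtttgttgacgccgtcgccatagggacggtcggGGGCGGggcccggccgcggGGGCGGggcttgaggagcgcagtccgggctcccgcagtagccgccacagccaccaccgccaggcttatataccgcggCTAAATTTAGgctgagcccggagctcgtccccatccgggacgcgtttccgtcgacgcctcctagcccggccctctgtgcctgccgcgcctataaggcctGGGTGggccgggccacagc
Klf3: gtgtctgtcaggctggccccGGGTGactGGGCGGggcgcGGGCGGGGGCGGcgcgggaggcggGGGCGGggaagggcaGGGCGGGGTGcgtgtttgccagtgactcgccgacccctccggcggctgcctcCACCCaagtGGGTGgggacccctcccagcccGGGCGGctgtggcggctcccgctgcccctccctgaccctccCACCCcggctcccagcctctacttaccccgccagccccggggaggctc
Txk: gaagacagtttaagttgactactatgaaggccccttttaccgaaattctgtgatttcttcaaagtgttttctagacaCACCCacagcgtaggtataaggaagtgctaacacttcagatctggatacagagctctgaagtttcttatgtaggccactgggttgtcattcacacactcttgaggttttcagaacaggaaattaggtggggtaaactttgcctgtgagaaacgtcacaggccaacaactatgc
Actn1: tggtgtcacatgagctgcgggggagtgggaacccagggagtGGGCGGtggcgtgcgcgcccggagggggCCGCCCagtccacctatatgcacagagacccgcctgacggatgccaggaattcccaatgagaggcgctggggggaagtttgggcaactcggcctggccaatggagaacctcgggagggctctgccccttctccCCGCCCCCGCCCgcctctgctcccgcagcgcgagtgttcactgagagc
The Klf2 window held 1 MEF2 motif, from 118 to 109 bases before the start, and MEF2 factors are known regulators of Klf2. This motif occurred in 3.2% of the 32851 mouse promoter windows of the same length, and in 1 of the 14 windows listed for 8 of the 10 genes. Klf2 also held 2 GC boxes and 1 CACCC box, Klf3 held 6 GC boxes and 5 CACCC boxes, Actn1 held 4 GC boxes and no CACCC box, and Txk held 1 CACCC box and no GC box. CACCC boxes occurred in 52% and GC boxes in 32.7% of all windows, so their presence here is common. The windows also differed in base composition, with a GC content of 71.2% for Klf2, 78.4% for Klf3 and 68.4% for Actn1 but 42.8% for Txk. The letters of a FOXO motif (TGTTTAC, in 3.17% of all windows), a TCF/LEF motif (CTTTGAT, 3.21%), a sterol response element (TCACNCCAC, 1.05%) and an interferon response element (GAAA, any 2 bases, then GAAA, 2.98%) were in none of the 14 windows. An ETS motif (ACCGGAAG, 1.72%) was in that of Bach2 alone.

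Each of the 10 genes had 1 probe set, and all 10 passed the level filter, a mean intensity of at least 32.4, together with 10940 genes in all. The deposited intensities are on a linear scale. Of the 3 arrays' 95th percentiles of negative-control probe sets the highest, 102, is the background level used below. Positive-control probe sets past the filter, 1165 in number, differed between the control and 0.5 µg/ml with an SD of 0.30 and between the control and 0.75 µg/ml with an SD of 0.31, on the log2 scale, and this is used below as a measure of the spread between arrays. Over all genes past the filter the SD was 0.21 and 0.36. The CD8 T cell genes Cd8a (3313 to 4225) and Cd3e (4364 to 4650.1) were far above background on all 3 arrays, so the defining genes of the labelled cell type were present. Of 9 measured B cell markers none was above background on all arrays, the list summed to between 325 and 348 on the 3 arrays and its brightest member, Cd79b, was at 111, 100.3 and 105. All 9 macrophage and dendritic cell markers were under background on each array, with a highest value of 55.3, and Cd4 was at 61.6, 39.4 and 35.7. Of the 4 CD4 T cell markers, Icos and Zbtb7b, which activated CD8 cells can also express, were above background, and of 6 NK and gamma-delta T cell markers Nkg7 and Eomes were, while Ncr1 and Klrb1c, which define NK cells, reached at most 13.3. In RNA from whole cultures, fewer cells of a type and less RNA per cell cannot be told apart.

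At 0.75 µg/ml all 10 genes were below the control. Their median log2 difference was -0.59 beside 0.0016 over all 10940 genes past the filter. Of the 10, 4 were at least 2-fold lower, Klf2, Klf3, Txk and Actn1 (without Klf3 when dim values are raised to the background level). Of all genes past the filter 1.57% differed as much in that direction and 47.7% were lower by any amount. Because the 10 genes were chosen with earlier results of these data known, these shares describe the list and are not independent support. At 0.5 µg/ml none of the 10 was at least 2-fold different, where 0.146% of all genes were, and 8 of the 10 were lower by any amount, as were 44.5% of all genes. The median there was -0.055 beside 0.011 over all genes. The low intensities at 0.75 µg/ml put 2 of the 10, Klf2 and Klf3, under the background level, so their differences are also given below as lower bounds.

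**Figure D1:**
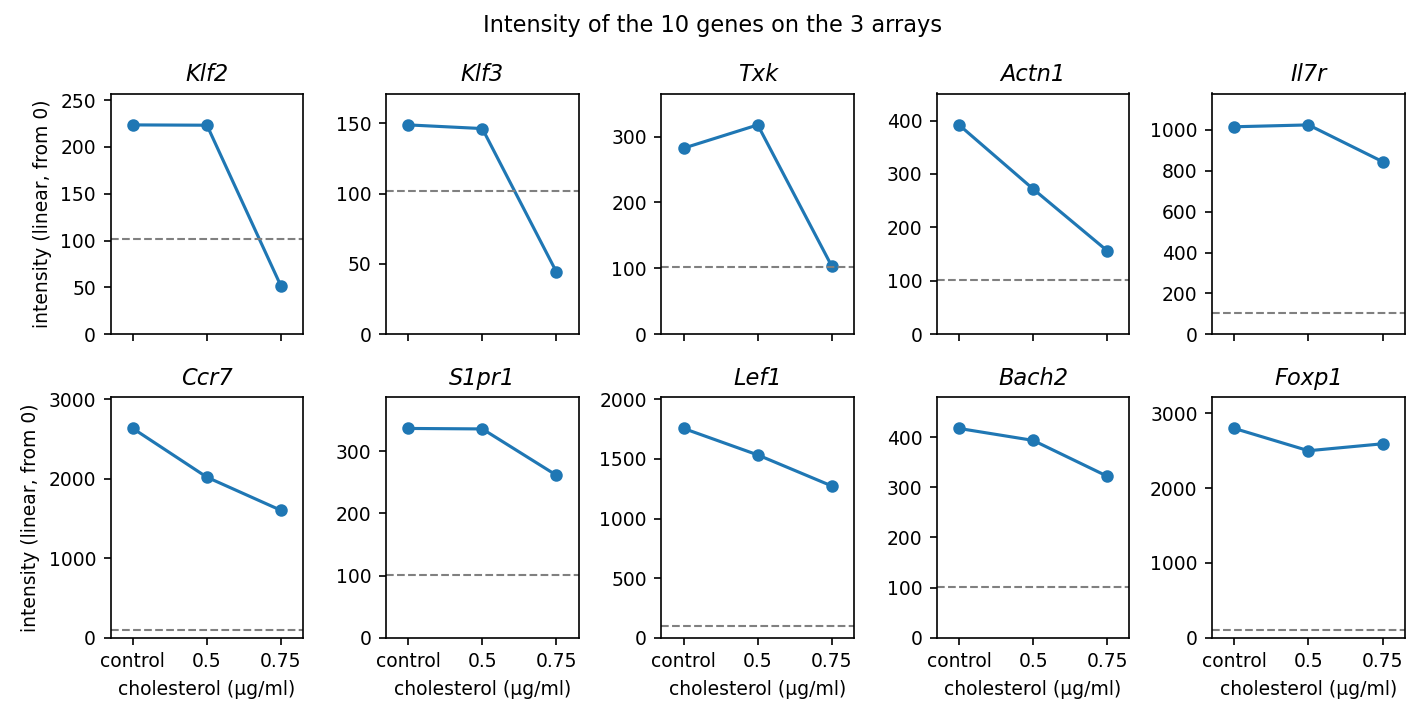
Intensity on a linear axis from 0 (vertical) for each of the 10 genes on the control, 0.5 and 0.75 µg/ml arrays (horizontal), 1 point per array, with the background level of 102 as a dashed line. Klf2, Klf3 and Txk are level up to 0.5 µg/ml and low at 0.75 µg/ml, Actn1, Ccr7 and Lef1 are lower at each dose, and Foxp1 varies little.

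The genes of both Krüppel-like factors went from above to below the background level between the doses. Klf2, the zinc finger factor of T cell quiescence, was at 223 on the control array, 223 with 0.5 µg/ml and 51.4 with 0.75 µg/ml cholesterol. The first 2 arrays were thus alike and the third was low, under the background level. The log2 difference from the control was -0.0021 at the lower dose and -2.12 at the higher, where the bound set by the background level is at least 2.20-fold lower. Klf3, which encodes a related factor that mostly represses transcription, was at 149, 146 and 44.3 in the same order. It followed Klf2 in shape, with log2 differences of -0.025 and -1.75, and the same bound for it is at least 1.46-fold lower. From 0.5 to 0.75 µg/ml Klf2 differed by -2.12 and Klf3 by -1.72 on the log2 scale, so nearly all of the distance lay between the doses.

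The kinase and the cytoskeletal gene differed in shape from each other. Txk, also called Rlk, a TEC family kinase that acts downstream of the T cell receptor, was at 282 on the control array, 318 with 0.5 µg/ml and 103 with 0.75 µg/ml cholesterol. Its value at the higher dose lay just over the background level. The log2 difference was 0.17 at 0.5 µg/ml, within the SD of the positive controls, and -1.45 at 0.75 µg/ml, a 2.73-fold lower intensity. Actn1, which encodes alpha-actinin-1, a cross-linker of actin filaments, was at 392, 272 and 156. It was lower at each dose, by -0.53 and then -1.33 on the log2 scale, and 39.7% of the log2 difference at 0.75 µg/ml was already present at 0.5 µg/ml. Actn1 was 2.51-fold lower at the higher dose and above background on each array. Among 547 genes of like mean intensity it ranked 11 from the lowest there, and 3.11% of them were at least 2-fold lower. Txk ranked 4 in its own set of 547, where the share was 1.10%. In the sets of Klf2 and Klf3 the share was 2.19% and 2.74%.

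Of the genes for receptors of recirculation and survival, Ccr7 differed most. Ccr7 was at 2635, 2021 and 1604, lower at each dose and far above background. Its log2 differences were -0.38 and -0.72, and 53.4% of the latter was present at 0.5 µg/ml. Among the 547 brightest genes past the filter its difference at the lower dose was the lowest, and at the higher dose it ranked 7 from the lowest. S1pr1 was at 337, 336 and 262, alike on the first 2 arrays and lower at 0.75 µg/ml, with a log2 difference of -0.36. Il7r, the gene for the interleukin-7 receptor alpha chain, was at 1015, 1025 and 845. Its log2 difference of -0.27 at 0.75 µg/ml was within the SD of 0.31 of the positive controls.

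The transcription factor genes of naive and memory cells were all less than 2-fold different. Lef1, a partner of beta-catenin that acts with the related factor TCF1, was at 1755, 1533 and 1273, lower at each dose, with log2 differences of -0.19 and -0.46. Bach2, which restrains effector genes, was at 417, 393 and 322, with differences of -0.085 and -0.37. Foxp1, which keeps naive T cells quiescent, was at 2797, 2499.6 and 2592. Foxp1 had its lowest value at 0.5 µg/ml, and its log2 differences of -0.16 and -0.11 were both within the SD of the positive controls. Among the 547 brightest genes, whose SD at 0.5 µg/ml was 0.11, the difference of Foxp1 at that dose ranked 20 from the lowest. Lef1, in the same set, ranked 13. At 0.75 µg/ml Lef1 ranked 15 and Foxp1 138. The T cell genes Cd8a, Cd8b1 and Cd3d differed by -0.35, -0.34 and -0.34 at 0.75 µg/ml, about as much as S1pr1 and Bach2, while Cd3e differed by 0.07, Cd3g by -0.09, Cd247 by -0.05, Cd2 by -0.01 and Gzmb by 0.10. Over these 8 T cell genes the median was -0.07. Whether what lowered Cd8a, Cd8b1 and Cd3d had a part in the differences of S1pr1 and Bach2 was not tested.

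**Figure D2:**
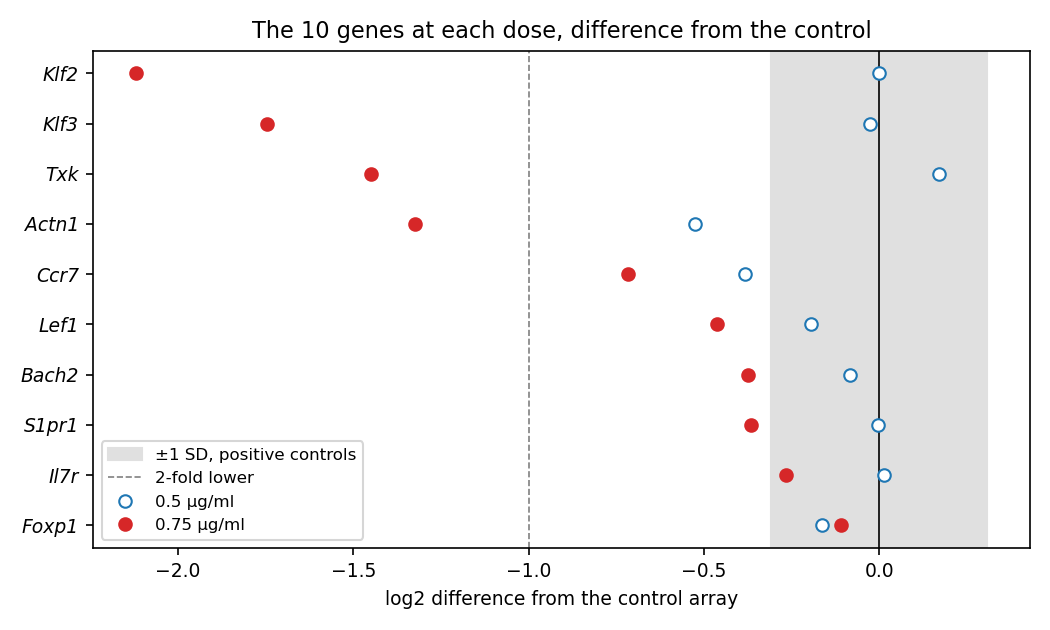
Log2 difference from the control array (horizontal) for each of the 10 genes (vertical), with open points for 0.5 µg/ml, filled points for 0.75 µg/ml, a grey band for ±1 SD of the positive controls (0.31, control against 0.75 µg/ml) and a dashed line at 2-fold lower. Klf2, Klf3, Txk and Actn1 lie beyond the dashed line at 0.75 µg/ml, and only Actn1 and Ccr7 lie outside the band at 0.5 µg/ml.

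Ordered by the difference at 0.75 µg/ml, the genes above background on each array ran from Txk through Actn1, Ccr7, Lef1, Bach2, S1pr1 and Il7r to Foxp1. The gap of 0.61 between Actn1 and Ccr7 was wider than the SD of the positive controls, and the other neighbours in this order did not differ beyond it. Klf2 and Klf3, under background at that dose, have only bounds and no settled place in the order. With dim values raised to the background level, Klf3 moved to a difference of -0.55 and Klf2 to -1.13, which ends the 2-fold difference of Klf3 and puts Klf2 after Txk and Actn1. The 6 genes that were less than 2-fold different had a median of -0.37, in a range from -0.72 to -0.11. At 0.75 µg/ml 8 of the 10 genes lay outside the SD of the positive controls, as did 25.3% of all genes. At 0.5 µg/ml 2 of the 10 did, Actn1 and Ccr7, beside 13.2% of all genes. Both comparisons share the control array.

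**Figure D3:**
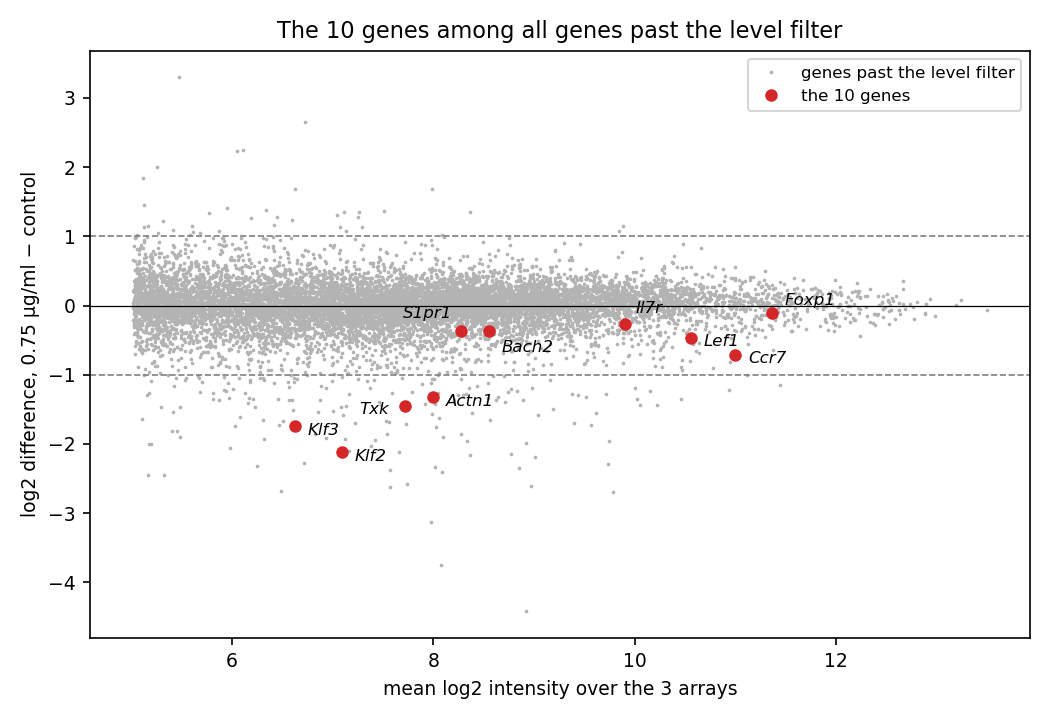
Log2 difference between 0.75 µg/ml and the control (vertical) against the mean log2 intensity over the 3 arrays (horizontal) for the 10940 genes past the level filter (grey) and the 10 genes (red), with dashed lines at 2-fold. All 10 genes lie below 0, and 4 lie below the lower dashed line, where 1.57% of all genes lie.

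Set against each other, the doses differed in 3 of the 10 genes by at least 2-fold, Klf2, Klf3 and Txk, where 1.19% of all genes were at least 2-fold lower at 0.75 than at 0.5 µg/ml. Txk was 3.07-fold lower at 0.75 than at 0.5 µg/ml. Actn1 differed by -0.80 between the doses, S1pr1 by -0.36, Ccr7 by -0.33, Bach2 by -0.29, Il7r by -0.28, Lef1 by -0.27 and Foxp1 by 0.05 on the log2 scale. Over the 10 genes the median was -0.35, beside -0.0057 over all genes. At 0.75 µg/ml 9 of the 10 were below their value at 0.5 µg/ml, as were 51.1% of all genes. Actn1, Ccr7, Lef1 and Bach2 were lower at each step of dose, as were Klf2, S1pr1 and Klf3, for which the first step was at most 0.025. How many of all genes were lower at both steps was not counted. Under quantile normalization the difference of Klf2 at 0.5 µg/ml became 0.006 and that of Il7r -0.007, so these genes have no direction at that dose.

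Around these genes, 80 others of the same families and pathways were listed, of which 72 had a named probe set and 61 passed the level filter. At 0.75 µg/ml 3 of the 61, Pik3ip1, Tsc22d3 and Itga4, were at least 2-fold lower (4.92%, beside 1.57% of all genes) and none was at least 2-fold higher. Their median was -0.09 and 39 of the 61 were below the control, where 47.7% of all genes were. These lists too were chosen with earlier results of these data known, so their shares are descriptive. Listed genes without a named probe set were not analysed here.

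Among the other Krüppel-like factor genes none of the 14 measured differed 2-fold at 0.75 µg/ml, where 1.93% of all genes did. Their median was -0.16, or -0.10 over the 9 that passed the level filter. Only 6 of the 14 were above background on the control array. The brightest, Klf13, was at 809, 739 and 649.8, Klf6 at 781, 725 and 633, and Klf7 at 724, 664 and 566. These differed by -0.32, -0.30 and -0.35 at 0.75 µg/ml, beside bounds of at least 2.20-fold and 1.46-fold lower for Klf2 and Klf3. Among the forkhead genes Foxo1, whose product activates Klf2, Il7r and Ccr7, was at 572, 447 and 406, lower at each dose, with differences of -0.36 and -0.49. Foxo3 and Foxp4 differed by -0.20 and -0.06 at 0.75 µg/ml. Of the other factors of the naive state, Satb1, a chromatin organiser, differed by -0.08, Ets1 by -0.13 and Myb by 0.17.

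The close relatives of Txk and Actn1 lay near the control. Tec, the other measured TEC family kinase gene above background, was at 309, 314.5 and 279, a difference of -0.15 at 0.75 µg/ml beside -1.45 for Txk. Actn4, which encodes the other non-muscle alpha-actinin, was at 2691, 2576 and 2713. Its difference was 0.01 beside -1.33 for Actn1. The motility genes Coro1a, for an actin regulator of lymphocyte movement, and Gnai2, for the G protein of chemokine receptors, differed by 0.28 and 0.05. Among the 11 measured genes of this list other than Actn1, 3 were below the control and 8 above, where 47.7% of all genes were below it.

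Among recirculation receptors and adhesion genes, 8 of the 10 measured genes other than Ccr7 and S1pr1 were below the control at 0.75 µg/ml, some of them by little, and 47.7% of all genes were below it. Itga4, the alpha-4 integrin gene for adhesion to vessel walls, was at 492, 475 and 244, alike on the first 2 arrays and 2.02-fold lower on the third. Cxcr4, the receptor gene for the chemokine CXCL12, was at 396, 458 and 203, differing by -0.97 from the control and by -1.17 between the doses. Like Txk it was low only at 0.75 µg/ml. The log2 differences of Cxcr4 and Txk at 0.5 µg/ml, 0.21 and 0.17, were both within the SD of the positive controls. Cd69, whose product pulls S1PR1 from the cell surface and which was picked after its values were seen, was at 1515, 1284 and 830.2, so it was lower together with S1pr1. The integrin gene Itgal differed by -0.01, its partner Itgb2 by -0.39 and the selectin ligand gene Selplg by -0.17. Another integrin gene, Itgb1, went the other way and was also picked after its values were seen. It was at 675, 763 and 952, a difference of 0.49 at 0.75 µg/ml.

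The interleukin-7 signalling list had a median close to the control, -0.02 over the 8 measured genes other than Il7r. Of these, 5 were lower and 3 higher, where 47.7% of all genes were lower. Bcl2l11 and Mcl1, picked after their values were seen, differed by -0.72 and -0.24, Bcl2l11 being at 283, 248 and 171. The survival gene Bcl2 was at 3474.5, 3895 and 3403, and the feedback inhibitor genes Socs1 and Cish differed by -0.10 and -0.01 at 0.75 µg/ml. Cell cycle brakes and quiescence genes had a median of -0.31 over 13 measured genes. Of the 13, 9 were lower and 4 higher, beside 47.7% of all genes lower. Pik3ip1, which encodes an inhibitor of PI3 kinase, was at 303, 254 and 83.4, under background at the higher dose and at least 2.97-fold lower. Tsc22d3, also called Gilz, a target of FOXO factors and glucocorticoids, was at 218, 147 and 57.6, likewise under background at the higher dose, with a bound of at least 2.14-fold. Btg1, an antiproliferative gene, was at 1598, 1368 and 862, lower at each dose. Slfn2 and Vsir, also of this list, differed by -0.31 and -0.04. Tob1 and Tob2, picked after their values were seen, went the other way, by 0.31 and 0.33 at 0.75 µg/ml.

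**Figure D4:**
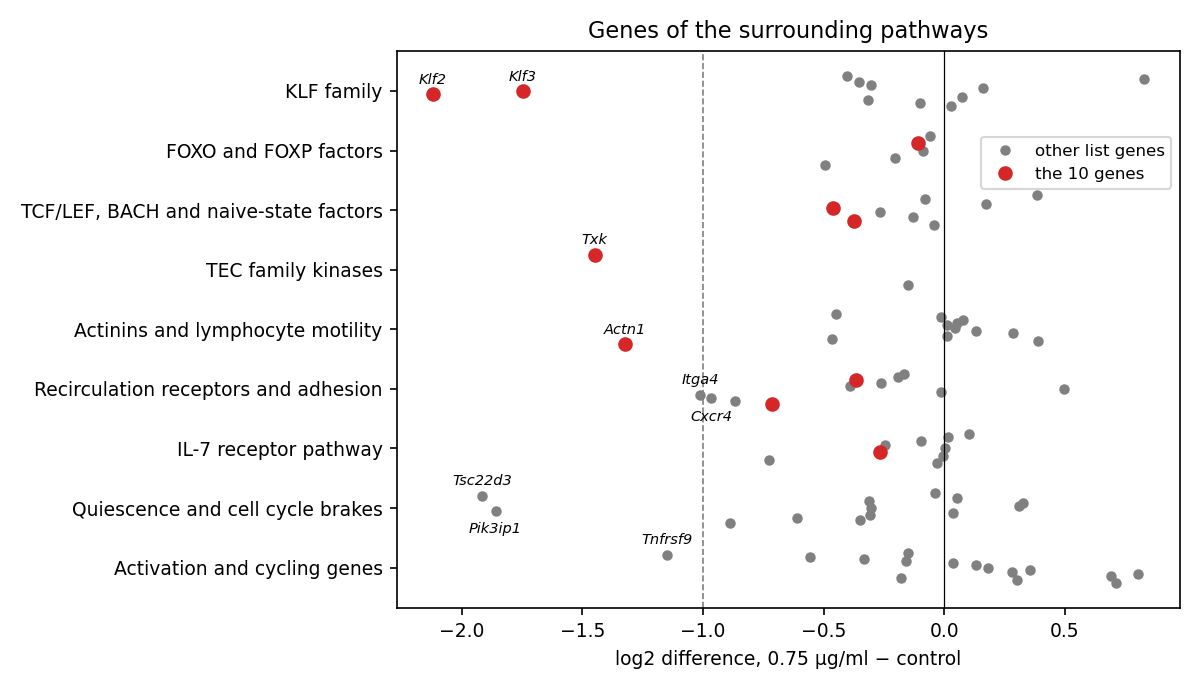
Log2 difference between 0.75 µg/ml and the control (horizontal) for the genes past the level filter in 9 lists (vertical), with the 10 genes in red, the others in grey and a dashed line at 2-fold lower. Klf2, Klf3, Txk and Actn1 stand at the low end of their own lists, and Pik3ip1, Tsc22d3, Itga4 and Tnfrsf9 are the other genes beyond the dashed line.

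Activation and cycling genes, which often move against the quiescence genes when T cells respond to antigen, had a median of 0.13 at 0.75 µg/ml. Of the 15 measured genes 9 were higher and 6 lower, beside 47.7% of all genes lower. The proliferation marker Mki67 was at 2033, 2156 and 2085 and Myc at 5925, 5703 and 5306, so both lay near the control. Cd44 and Egr3, picked after their values were seen, were higher at 0.75 µg/ml by 0.71 and 0.80 on the log2 scale. Egr3 was at 108, 121 and 188, so it lay near background on the control array. Nr4a1 and Egr1, picked likewise, went the other way, by -0.33 and -0.18. Nr4a1 was under background at 0.75 µg/ml and Egr1 on each array. Tnfrsf9, the 4-1BB costimulatory receptor gene, was at 3625, 3597 and 1636, and Tnfrsf4, the OX40 gene, differed by -0.56. Egr2, an early response factor gene, was at 106, 79.5 and 170.5, a difference of 0.69 from the control at the higher dose, and was at least 1.67-fold higher at 0.75 than at 0.5 µg/ml.

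The genes nearest in pattern were those with the smallest distance in the 2 log2 differences from the control, over 3 arrays. For Klf2 they were Arrb1, a beta-arrestin gene, at 327, 331 and 75.5, Ifi213 at 541, 543 and 121, and Ifi209 at 755, 784 and 190.4. For Klf3 they were the glucose transporter gene Slc2a3, Ifi214 and the checkpoint gene Ctla4. Klf2, Klf3 and Arrb1 were under background at 0.75 µg/ml and Ifi214 on every array, so these matches rest on values that are only bounds. For Txk they were Egln3, an oxygen-sensing hydroxylase gene, with a distance of 0.085, and Tlr7 and the glycogen phosphorylase gene Pygl, which at 91.4 and 46.0 were under background at 0.75 µg/ml. Actn1 was nearest to Lss, the lanosterol synthase gene of sterol synthesis, at 1126, 779 and 449, with a distance of 0.0052. The other nearest genes of Actn1 were Tagap and H2-DMa, with distances of 0.076 and 0.088. All of these distances were smaller than the SD of the positive controls in either difference, 0.30 and 0.31. The order of nearness is thus not resolved, and every gene has some nearest gene. The distances also all use the same control array. The interferon-inducible genes Ifi209, Ifi213 and Ifi214 are similar in sequence, so their probe sets may share signal.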

How the data were processed

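Total RNA of 3 samples was extracted with Trizol and biotin-labelled for whole-transcript arrays, per the labels. The deposited table gives linear intensity values, as their range shows, for 28846 probe sets on each array. No source used here states how the authors corrected background or normalized. The arrays had median intensities between 32.4 and 33.0. Of the probe sets, 19572 had a gene symbol in the platform annotation, and the brightest per gene was used. The log2 of each intensity was taken with no further scaling and arrays were subtracted. Genes with a mean log2 value of at least 5.02 were kept. That filter also let through 19.8% of 5222 negative controls. A lower bound sets the brighter array over the background level, the highest 95th percentile of negative controls. With 1 array per condition, no test was run and a 2-fold difference was counted. The members and lists were chosen with earlier results of these data known. Named were the 10 genes, in each list the genes at least 2-fold different in a comparison and up to 3 others of the brightest, the 2 brightest of each marker list with Cd8a, Cd3e and Cd4, and the 3 nearest in pattern to Klf2, Klf3, Txk and Actn1, without predicted genes; other names are marked or stand as lineage references. Alternatives were dim values raised to background, median centring, quantile normalization, a pseudocount of 16, all probe sets of a gene, a 1.5-fold threshold and a stricter filter. Promoters came from RefSeq. Python 3.11.15, numpy 2.4.6, pandas 2.3.3 and matplotlib 3.10.9 were used. The subtraction and the count of 2-fold differences were tested on simulated data with less noise than the positive controls showed. That test did not cover the filter, the bounds or the promoter search.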

Additional observations from a re-analysis of the deposited data

How the results depend on the processing

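The number of the 10 genes at least 2-fold different and their median difference were recomputed under each alternative. At 0.75 µg/ml the count was 4, or 3 with values under the background level raised to it, and 5 with a 1.5-fold threshold, where 4.55% of all genes were lower by that much. The median there ranged from -0.62 under quantile normalization to -0.51 with dim values raised. Between the doses the count was 3, or 2 with dim values raised. At 1.5-fold it was 4 there, where 3.72% of all genes were lower by that much. For 0.5 µg/ml against the control it was 0 throughout, beside 1.94% of all genes at least 1.5-fold different. Raising dim values moved Klf2 and Klf3 to -1.13 and -0.55 against the control and to -1.13 and -0.52 between the doses, by its own construction. Centring or quantile normalization moved no difference of the 10 genes by more than 0.054. Each gene had 1 probe set, so averaging probe sets altered none of their values. No paired analysis was possible because each condition had 1 array. Precision is limited by the number of arrays and, for Klf2 and Klf3 at 0.75 µg/ml, by signal under background.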
